A study of Mus musculus with 13 samples.

Results

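Bone that carried 1 disrupted copy of Prkaca was compared with wild-type bone. Prkaca encodes Cα, one of the catalytic subunits of the cAMP-dependent kinase PKA (protein kinase A). The comparison rests on 8 of the 13 samples of the study, 4 labelled WT and 4 labelled Prkaca+/-. It took every annotated gene that could be measured, and the 5 arrays of bone lesions entered neither the normalisation nor the fit. All 8 samples were total RNA of caudal (tail) vertebral bone from mice of a C57BL/6x129Sv/B6 hybrid background at 9 months of age, each hybridised to 1 Illumina bead array. Neither group carried a Prkar1a mutation by its label, and no treatment was named. Replicates are numbered in the labels but not tied to individual mice, and p-values therefore reflect the spread among these samples, which may be technical. The labels do not describe the design of the Prkaca allele, the dissection or the number of animals behind a sample.

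PKA is held inactive as a complex of a pair of regulatory subunits with a pair of catalytic subunits. When cAMP rises, for example after parathyroid hormone binds its receptor on osteoblasts, it binds the regulatory subunits and the catalytic subunits are freed to phosphorylate enzymes and transcription factors such as CREB. Cα and Cβ are the main catalytic subunits, RIα and RIIα are regulatory subunits found in most tissues, and small inhibitor proteins (PKI) can block the free catalytic subunit. In bone this pathway carries the action of parathyroid hormone, and in fat cells it carries the signal that starts lipid breakdown.

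Levels below are log2 normalised intensities, on which a difference of 1 is a 2-fold change, and each difference is the mean of the Prkaca+/- arrays minus the mean of the WT arrays with its standard error (SE) and a moderated 95% confidence interval from limma. A level compares arrays for the same probe and says nothing of one gene against another. Between 13555 and 14254 of 25697 probes per array, 52.7% to 55.5%, had a detection p-value under 0.01. A gene was tested if its probe was detected at that level on at least 2 of the 8 arrays, which left 10349 genes, 8663 of them detected on all 8. Pairs of arrays correlated between 0.959 and 0.988 over these genes. WT replicate 2 lay apart on the first principal component, which held 32.5% of the variance, and WT replicate 1 and Prkaca+/- replicate 3 lay at opposite ends of the second, which held 21.7%. WT replicate 2 and Prkaca+/- replicate 4 had high Xist and low Y-linked genes, so each group held 1 such array and 3 of the other kind. Bone genes were detected on all 8 arrays (Col1a1, Col1a2, Bglap, Ibsp, Phex, Acp5 and Ctsk), and so were genes of skeletal muscle (Acta1, Ckm, Mylpf), fat (Adipoq, Plin1), blood-forming marrow (Alas2, Hba-a1), cartilage (Acan, Col2a1) and nerve (Mbp). In tissue of this kind, fewer cells of a type and less RNA per cell cannot be told apart.

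Prkaca itself was lower on every Prkaca+/- array than on every WT array. In WT bone its level was 11.39, 11.46, 11.69 and 11.47 in replicates 1 to 4, and in Prkaca+/- bone it was 10.98, 10.65, 10.62 and 10.22. The groups did not overlap, and the highest Prkaca+/- array was the first replicate. The difference was -0.89 ± 0.17 (SE, 4 against 4 arrays; interval -1.26 to -0.52), which places Prkaca in heterozygous bone at 54.1% of WT with an interval of 41.8% to 69.9%. As deposited, before any correction, the intensity of the same probe averaged 2995 ± 279 in WT and 1667 ± 341 in Prkaca+/- (SD, n = 4 each), a ratio of 55.7%. A second Prkaca probe gave a difference of -1.0 and 51.2% of the deposited WT intensity. An exact two-sided permutation test of this 1 gene gave p = 0.0286, the smallest that the 70 ways of splitting 8 arrays allow. The limma p-value adjusted over all genes was 0.999, so the gene that the genotype label names did not itself pass a test across 10349 genes. Which part of Prkaca is targeted, and whether the probes lie within it, is not stated in the labels.

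The promoter window of Prkaca is shown because the label places the mutation in this gene, and those of Ibsp and Lep because these genes had the largest differences among osteoblast genes detected on all arrays and adipocyte genes detected on all arrays. Each window runs from 250 bases before to 50 bases after the gene start in RefSeq (GRCm38.p6, plus strand), and capitals mark the short CREB site TGACG or its complement CGTCA, searched on both strands.
Prkaca, chr8:83972728-83973027: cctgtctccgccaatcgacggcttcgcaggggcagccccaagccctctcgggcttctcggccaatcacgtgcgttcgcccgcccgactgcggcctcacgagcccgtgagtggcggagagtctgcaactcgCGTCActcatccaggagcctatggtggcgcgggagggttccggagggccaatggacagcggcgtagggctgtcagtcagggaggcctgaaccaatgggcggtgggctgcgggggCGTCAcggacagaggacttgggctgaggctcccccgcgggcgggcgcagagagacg
Ibsp, chr5:104299037-104299336: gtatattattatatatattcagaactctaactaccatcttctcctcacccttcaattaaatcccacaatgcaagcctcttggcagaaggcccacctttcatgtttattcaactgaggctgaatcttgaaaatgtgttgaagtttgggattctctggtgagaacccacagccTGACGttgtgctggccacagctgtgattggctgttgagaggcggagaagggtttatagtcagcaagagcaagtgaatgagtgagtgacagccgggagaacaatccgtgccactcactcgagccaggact
Lep, chr6:29059971-29060270: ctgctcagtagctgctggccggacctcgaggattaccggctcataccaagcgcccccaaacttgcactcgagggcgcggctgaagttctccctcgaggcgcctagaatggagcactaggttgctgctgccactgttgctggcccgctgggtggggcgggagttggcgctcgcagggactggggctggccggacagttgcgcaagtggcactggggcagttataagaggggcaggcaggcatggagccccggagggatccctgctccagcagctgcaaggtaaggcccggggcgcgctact
The Prkaca window held 2 short sites, the Ibsp window 1 and the Lep window 0, and none of these windows held the full palindrome TGACGTCA, of which the short site is a part. For Prkaca the table listed 2 windows and the one farther upstream is printed. Of the 8367 tested genes with a listed window, 2530 (30.2%) held a short site and 258 (3.08%) the full site. A short site stood in 20 of 76 windows (26.3%) of genes whose mean was higher at an unadjusted p under 0.05, and in 14 of 67 (20.9%) of those lower. In the list of CREB family and cAMP-responsive genes it stood in 11 of 18 windows, and in that of PKA genes in 3 of 5. It stood in 1 of 13 windows of adipocyte genes, 5 of 11 of osteoblast genes and 2 of 11 of chondrocyte genes. These matches describe letters, not binding.

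The intervals of the other measured PKA genes all lay inside a 2-fold change. Prkacb, which encodes the other main catalytic subunit Cβ, was at 12.60, 12.48, 12.92 and 12.60 in WT and at 12.53, 12.44, 12.31 and 12.64 in Prkaca+/- bone. Its groups overlapped, the difference was -0.17 ± 0.14, and the interval ran from 72.1% to 109.7% of WT. Prkx, a related catalytic subunit, was at 9.63, 9.86, 9.70 and 9.76 in WT and at 9.59, 9.91, 9.93 and 9.73 in Prkaca+/- bone, a difference of 0.05 with an interval from 85.7% to 125.8% of WT.

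Prkar1a encodes RIα, the regulatory subunit whose gene is heterozygous in the lesion samples of the study. Its levels were 12.68, 12.60, 12.69 and 12.58 in WT and 12.73, 12.56, 12.76 and 12.65 in Prkaca+/- bone. The groups overlapped and the difference of 0.03 ± 0.11 had an interval from 86.7% to 120.9% of WT, the narrowest of the PKA genes. Prkar2a, which encodes RIIα, differed by -0.07, with an interval from 76.4% to 118.2% of WT. The inhibitor genes Pkia and Pkig differed by -0.18 and -0.00, with intervals from 64.3% to 121.3% and from 80.0% to 124.4% of WT. Prkar1b, Prkar2b and Pkib were on the array but were detected on fewer than 2 of these arrays and were not tested. Of the 10 PKA genes on the array, 7 were therefore measured, 1 of them (Prkaca) was lower with groups that did not overlap, and the intervals of the other 6 lay inside a 2-fold change. Over all genes tested, the groups did not overlap with the Prkaca+/- arrays lower for 0.473%.

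**Figure D1:**
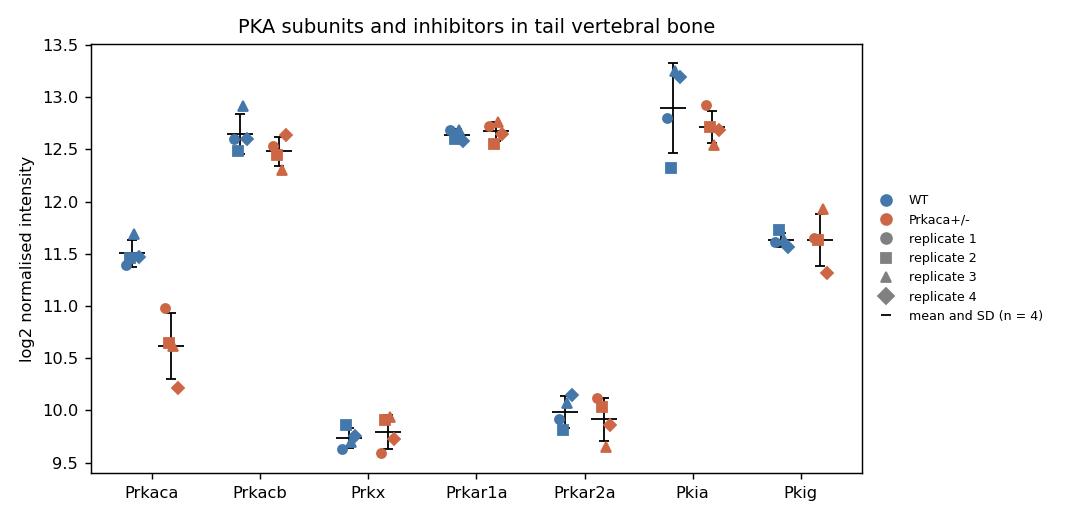
Log2 normalised intensity (vertical axis) of the 7 measured PKA genes on each WT (blue) and Prkaca+/- (orange) array, 1 symbol per replicate, with the mean and SD of 4 arrays in black. Only for Prkaca do the groups lie apart, at 11.39 to 11.69 against 10.22 to 10.98.

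Of 10349 genes, 0 (0%) passed an adjusted p of 0.05 in limma, and the smallest adjusted p was 0.999. At an unadjusted p under 0.05 there were 191 genes (1.85%), of which 99 (0.957%) were higher and 92 (0.889%) lower in Prkaca+/- bone, and 26 (0.251%) had an unadjusted p under 0.01. The groups did not overlap for 122 genes (1.18%), 73 higher (0.705%) and 49 lower (0.473%). With no difference between the groups, average shares of 0.05 under that p and 0.0286 without overlap would be expected. Both observed shares were smaller. The mean was higher for 5392 genes (52.1%) and lower for 4957 (47.9%), and the median difference over all genes was 0.01. The 5th and 95th percentiles were -0.27 and 0.26. Prkaca was second among all genes by p-value, after Mrap.

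**Figure D2:**
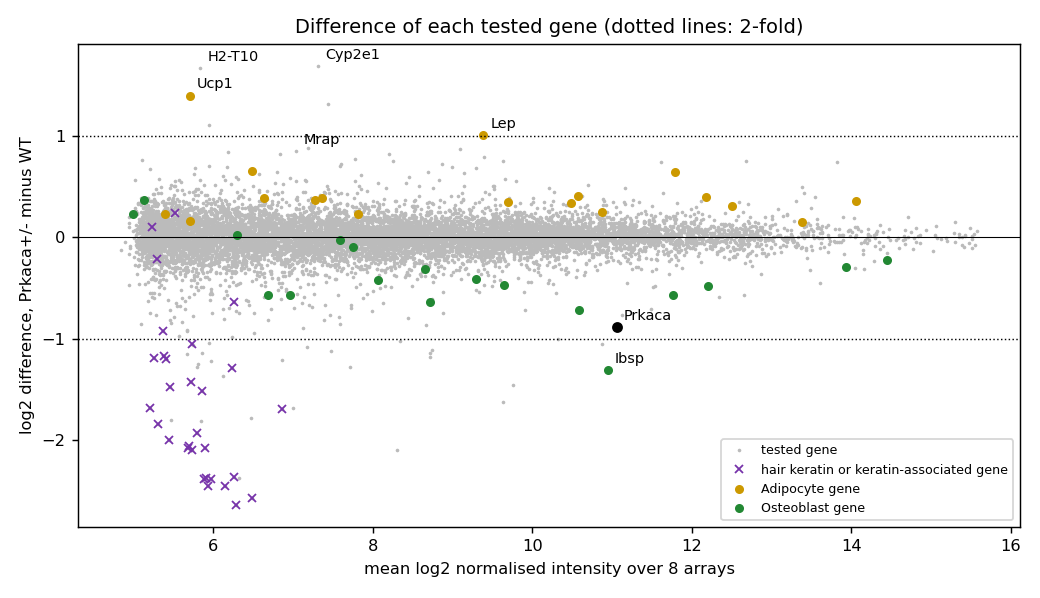
Difference between Prkaca+/- and WT (vertical axis, log2) against the mean level over 8 arrays (horizontal axis, log2 normalised intensity) for every tested gene, with dotted lines at a 2-fold change. Most genes lie near 0, the adipocyte genes (yellow) lie above it, most osteoblast genes (green) below it, and the genes farthest below are hair keratins (crosses).

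The intervals give how large a change in normalised intensity these 8 arrays leave room for. A constant (the offset) was added to every intensity before log2, which draws differences at low levels towards no change. For weakly detected genes an interval inside 2-fold therefore does not bound the change in RNA. The 95% interval of 9836 genes (95%) lay wholly inside a 2-fold change in either direction, and that of 7378 genes (71.3%) inside a 1.5-fold change. The share inside 2-fold was 97.2% with an offset of 50, 97.7% with no background correction and 96.5% with no detection filter. The median distance from an estimate to the ends of its interval was 0.37, or 1.29-fold. For 90% of the genes both ends of the interval lay inside a 1.75-fold change, and for 99% inside a 3.49-fold change. A test of equivalence (a pair of one-sided limma tests, adjusted over all genes) placed 9983 genes (96.5%) inside 2-fold and 8117 (78.4%) inside 1.5-fold. These counts are larger than those of the intervals because such a test corresponds to a 90% interval. When the intervals were widened to hold for all 10349 genes at once (Bonferroni), 97 genes (0.937%) remained inside 2-fold and 7672 (74.1%) inside 4-fold.

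Precision followed the level. With genes ordered by mean level into 4 equal classes, 58.8% of the intervals lay inside 1.5-fold in the lowest class, then 65.4% and 77.5%, and 83.6% in the highest. For genes detected on 2 to 7 arrays the share inside 2-fold was 89.6%, against 96.1% for those detected on all 8. There were 513 genes whose interval reached past 2-fold and 90 whose interval reached past 4-fold. For those genes a change of more than 2-fold was not excluded, and Prkaca and Ibsp are among them. A gene with the median SE of 0.17 would have needed a difference of 1.5, or 2.82-fold, to pass the adjusted threshold on its own, and the difference of -0.89 for Prkaca is smaller than that.

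**Figure D3:**
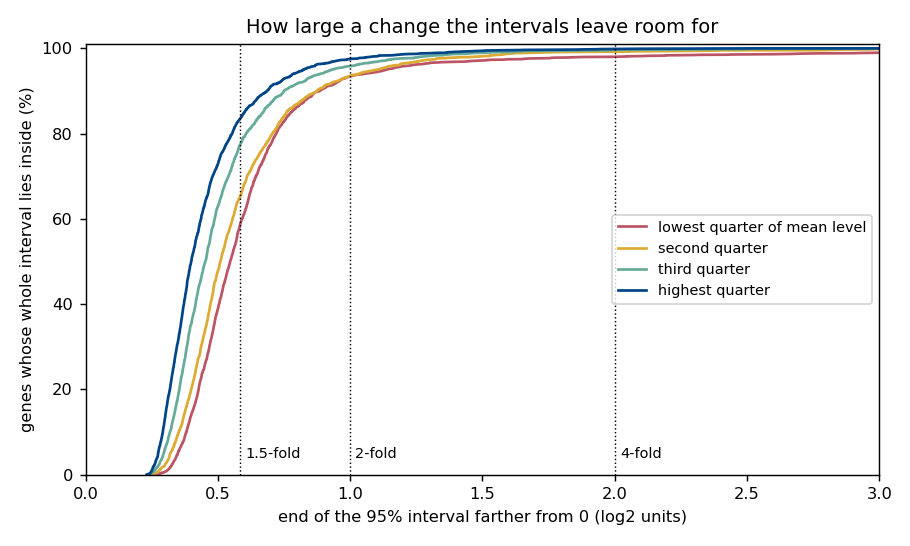
Share of genes (vertical axis, percent) whose whole 95% interval lies within a given distance from no change (horizontal axis, log2 units), for 4 equal classes of mean level. At the 1.5-fold line the classes stand at 58.8%, 65.4%, 77.5% and 83.6%, and at 2-fold all stand between 93.4% and 97.5%.

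The genes described next are given as values, since none passed the adjusted threshold, and they were taken from the 26 genes with an unadjusted p under 0.01 as those whose groups did not overlap and that were detected on all 4 arrays of the brighter group, 9 higher and 9 lower in Prkaca+/- bone.

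Mrap encodes an accessory protein of melanocortin receptors, which signal through cAMP, and it is expressed in fat and adrenal cells. It was at 6.57, 6.40, 6.76 and 6.70 in WT and at 7.39, 7.21, 7.72 and 7.53 in Prkaca+/- bone. Every Prkaca+/- array lay above every WT array, and the difference was 0.85 ± 0.14 (interval 0.53 to 1.18), or 1.81-fold. Lta, which encodes the cytokine lymphotoxin alpha, was at 5.92, 5.11, 5.81 and 5.52 in WT and at 6.36, 6.25, 6.14 and 6.42 in Prkaca+/- bone, a difference of 0.70 ± 0.18. Ccn1, which encodes a matrix protein that binds integrins, was at 9.52, 9.31, 9.25 and 9.30 in WT and at 9.64, 9.83, 9.68 and 9.74 in Prkaca+/- bone, a difference of 0.38 ± 0.11. Fmo2, a flavin-containing monooxygenase, Nudt6, a Nudix hydrolase gene antisense to Fgf2, Hacd2, an enzyme of fatty acid elongation, Pex13, a peroxisomal import protein, and Dusp18, a dual specificity phosphatase, differed by 0.39 to 0.54. Their lowest Prkaca+/- array lay above their highest WT array in each case. Hacd2 was detected on 1 WT array and Fmo2 on 2. With no background correction the differences of Mrap, Lta, Fmo2 and Hacd2 were 0.57, 0.33, 0.24 and 0.21. A second Pex13 probe gave 0.25 against 0.43, and whether the probes of Nudt6 and Fgf2 keep the strands apart was not tested. Cutal was not detected on any WT array and was at least 1.10-fold higher in Prkaca+/- bone, measured against the detection floor.

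On the lower side Ibsp came first. It encodes bone sialoprotein, an osteoblast matrix protein tied to mineral formation. It was at 12.16, 10.81, 11.99 and 11.43 in WT and at 10.33, 10.25, 9.93 and 10.65 in Prkaca+/- bone. The groups did not overlap, with WT replicate 2 and Prkaca+/- replicate 4 nearest to each other. The difference was -1.31 ± 0.28 (interval -1.94 to -0.67), so Ibsp stood at 40.4% of WT, and a second probe gave -0.91. Plod2, which encodes a lysyl hydroxylase that modifies collagen, was at 8.14, 7.49, 7.47 and 7.85 in WT and at 6.88, 7.15, 6.88 and 7.37 in Prkaca+/- bone, a difference of -0.67 ± 0.19. Fzd2, a receptor for Wnt ligands, was at 6.62, 6.71, 6.87 and 6.71 in WT and at 6.08, 6.09, 5.97 and 6.27 in Prkaca+/- bone, a difference of -0.62 ± 0.12. For both genes the groups did not overlap.

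Prnd, which encodes the prion-like protein doppel, differed by -0.69, Hoxb6, a homeobox gene of axial patterning, by -0.42, and Tceal9 by -0.37. With no background correction Fzd2, Prnd and Hoxb6 differed by -0.35, -0.37 and -0.18. Dmkn and Sbsn, both expressed in epidermis, differed by -0.87 and -0.50. Their probes varied. A second Dmkn probe, with a WT mean of 8.81, gave -0.75. Another, with a WT mean of 5.56 and detection on 3 Prkaca+/- arrays, gave 0.10. The other Sbsn probe gave -0.10.

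Sets of genes with a common role were then read by their counts and medians, beside the share of all genes that was higher (52.1%) and the median of all genes (0.01). Of 34 lists, 5 had a median beyond 0.3 in either direction, those of adipocytes, osteoblasts, chondrocytes, keratinocytes and granulocytes, and the largest median among the rest was 0.14 in size. The mean over a list did not separate the groups for any of the 34. None of the 549 distinct genes measured in these lists passed the adjusted threshold. The lists were chosen with earlier results of these data known. Members of a list can also vary together from array to array, so counts within a list are not counts of independent genes.

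**Figure D4:**
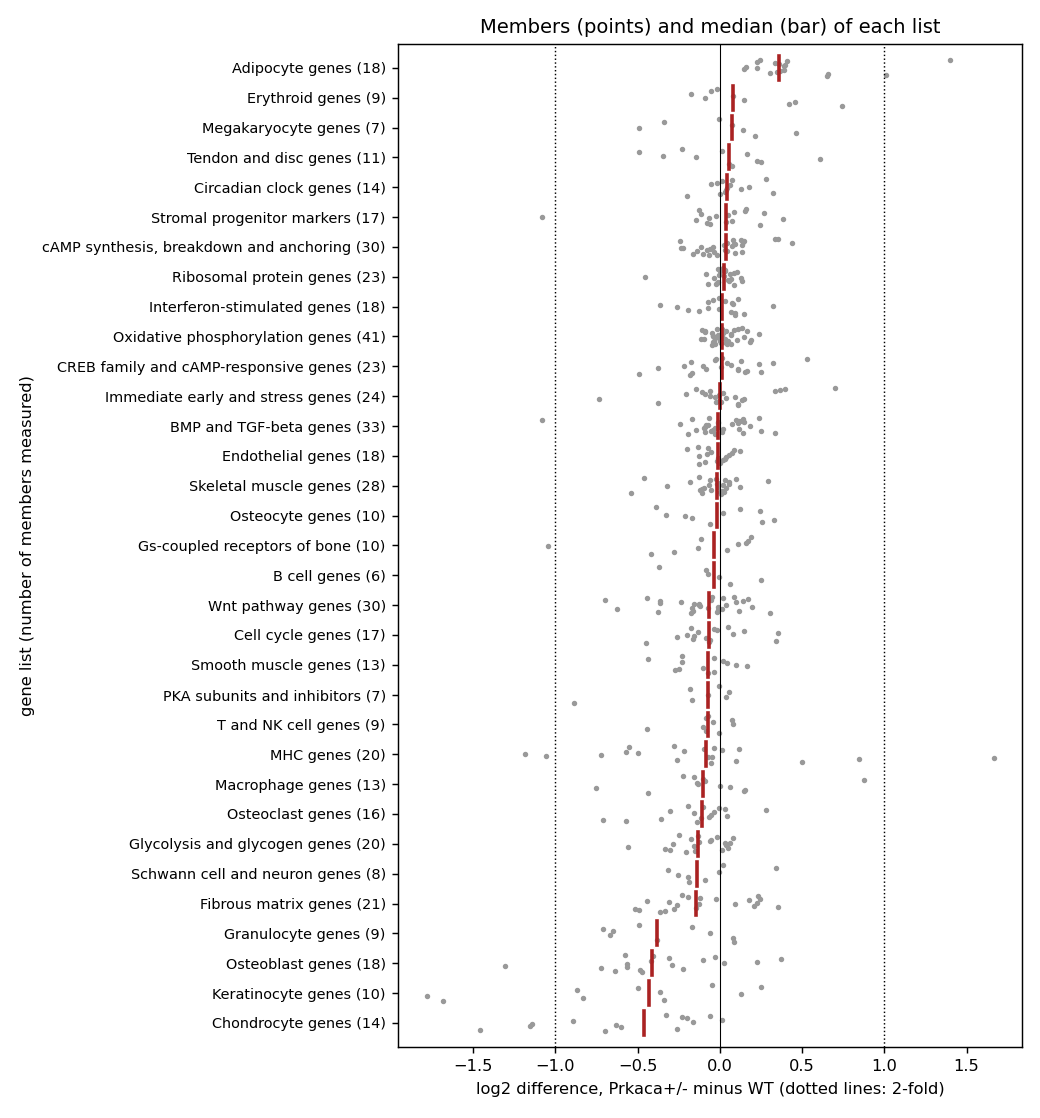
Difference between Prkaca+/- and WT (horizontal axis, log2) for each measured member (points) and the median (red bar) of 33 gene lists, ordered by median, with dotted lines at a 2-fold change. The list of Y-linked genes and Xist is left out. The medians run from -0.46 for chondrocyte genes to 0.36 for adipocyte genes.

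Adipocyte genes were higher as a set. All 18 measured genes of the list had a higher mean in Prkaca+/- bone, with a median difference of 0.36, or 1.29-fold. For 6 of them the unadjusted p was under 0.05, against 0.957% of all genes, and for 2 the groups did not overlap, against 0.705%. The mean over the list was 9.29, 9.00, 9.06 and 8.94 on the WT arrays and 9.25, 9.43, 9.56 and 9.83 on the Prkaca+/- arrays. WT replicate 1 lay just above Prkaca+/- replicate 1, and the other Prkaca+/- arrays lay above all WT arrays. With 1 array left out at a time the median lay between 0.29 and 0.42.

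The largest of these differences were in genes with a narrow role in fat. Lep encodes leptin, the hormone that fat cells release in proportion to fat stores. It was at 9.25, 8.38, 9.02 and 8.87 in WT and at 9.21, 9.60, 10.31 and 10.43 in Prkaca+/- bone, a difference of 1.01 ± 0.29 (interval 0.36 to 1.65), or 2.01-fold. Only Prkaca+/- replicate 1 lay within the WT range. Adipoq, which encodes the hormone adiponectin, was at 11.70, 11.92, 11.14 and 11.12 in WT and at 11.66, 11.77, 12.30 and 12.74 in Prkaca+/- bone, a difference of 0.65 ± 0.27. Plin1 encodes perilipin 1, which coats the lipid droplet and is a substrate of PKA, and it differed by 0.66 ± 0.30 with overlapping groups. Ucp1, the uncoupling protein of thermogenic fat, was at 6.28, 4.73, 4.54 and 4.46 in WT and at 4.97, 7.27, 7.06 and 6.31 in Prkaca+/- bone, a difference of 1.40 ± 0.54. It was detected on 1 WT array and 3 Prkaca+/- arrays.

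The enzymes that release stored fat had smaller differences. Pnpla2 encodes adipose triglyceride lipase, which takes the first step of lipid breakdown. It was at 12.01, 11.87, 12.00 and 12.02 in WT and at 12.32, 12.20, 12.71 and 12.27 in Prkaca+/- bone, a difference of 0.40 ± 0.14, and the groups did not overlap. Lipe encodes hormone-sensitive lipase, which PKA phosphorylates. It was at 6.66, 6.69, 6.26 and 6.17 in WT and at 6.75, 6.73, 6.78 and 7.07 in Prkaca+/- bone, a difference of 0.39 ± 0.16, and again the groups did not overlap. Dgat2, which makes triglyceride, differed by 0.41 ± 0.16. The lipid droplet genes Plin4, Cidea and Cidec differed by 0.31 to 0.37, the fatty acid carrier gene Cd36 by 0.39, and the lipid synthesis genes Acaca, Scd1 and Fasn by 0.34, 0.36 and 0.23. Slc2a4, the insulin-responsive glucose transporter, which muscle also expresses, differed by 0.25. The smallest differences were in Lpl (0.15), Cebpa (0.16) and Pparg (0.23). The last of these encode the transcription factors of the fat cell, and a second Pparg probe gave 0.59.

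Muscle genes, also detected on every array, gave a median near 0. The mean over 28 skeletal muscle genes lay between 13.01 and 13.22 on the WT arrays and between 12.97 and 13.12 on the Prkaca+/- arrays, with a median difference of -0.01. Of the 28 genes 12 were higher and 16 lower. Acta1, skeletal muscle actin, had an interval from 84.7% to 119.2% of WT, and Mylpf, a fast myosin light chain, one from 86.5% to 118.0%. Their WT means, 15.38 and 15.51, lay near the highest mean of any gene, 15.58. Quantile normalisation leaves little room to differ there, so these intervals do not bound muscle RNA. Myh4 and Myod1 differed by -0.54 and -0.46, with intervals from 41.8% to 113.2% and from 49.1% to 107.9% of WT. Of the 28 intervals 26 lay inside 2-fold and 24 inside 1.5-fold. Myoz2, a sarcomere protein of slow and heart muscle, was the only member whose groups did not overlap, against 1.18% of all genes, with a difference of 0.29 ± 0.12. Mybpc2, a fast-muscle myosin binding protein outside the list, was at 10.78, 10.86, 10.85 and 10.80 in WT and at 9.99, 10.72, 8.64 and 9.92 in Prkaca+/- bone, a difference of -1.01 ± 0.35. It was singled out after its values were seen.

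Osteoblast genes were lower as a set. Of 18 measured genes 15 had a lower mean in Prkaca+/- bone, with a median difference of -0.41. For 4 the unadjusted p was under 0.05, against 0.889% of all genes lower at that level. The mean over the list was 9.50, 9.17, 9.14 and 9.28 in WT and 8.96, 8.88, 8.6 and 9.21 in Prkaca+/- bone. Prkaca+/- replicate 4 lay within the WT range and the other Prkaca+/- arrays below it. Without Prkaca+/- replicate 3, the lowest of them, the median was -0.21.

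Col1a1 encodes the α1 chain of type I collagen, the main protein of bone matrix. It was at 12.41, 12.37, 12.45 and 12.57 in WT and at 12.37, 12.19, 11.53 and 11.78 in Prkaca+/- bone, a difference of -0.48 ± 0.18. The groups did not overlap, but Prkaca+/- replicate 1 lay at the lowest WT array. Col1a2, the partner chain, differed by -0.22 ± 0.14 with overlapping groups. Smpd3, a sphingomyelinase needed for mineralisation, differed by -0.57 ± 0.18, and Ifitm5, an osteoblast membrane protein, by -0.57 ± 0.25. Bglap, which encodes osteocalcin, was at 10.62, 11.73, 10.66 and 10.76 in WT and at 9.61, 9.73, 10.06 and 11.47 in Prkaca+/- bone. Its difference of -0.72 ± 0.41 had an interval from 32.2% to 114.1% of WT, and on Prkaca+/- replicate 4 it was above 3 of the WT arrays. The other Bglap probes gave -0.23 and -0.56. Bglap2, a close copy of Bglap that probes may not tell apart, gave -0.57.

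Alpl, the alkaline phosphatase of mineralising cells, differed by -0.64 and Sp7, the osteoblast transcription factor osterix, by -0.48. Pth1r, the parathyroid hormone receptor that acts through cAMP and PKA, differed by -0.42, and its other probes by -0.10 and -0.23. Tmem119 differed by -0.31 and Sparc, which encodes osteonectin, by -0.29, all with overlapping groups. Members near or above 0 were Bmp3 (-0.03), Phospho1 (0.02), Msx2 (0.23) and Col11a2 (0.37), and the last pair were detected on at most 3 arrays of a group.

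Of 10 osteocyte genes 5 were higher and 5 lower, with a median of -0.02. Mepe, an osteocyte matrix protein, differed by 0.26, Phex, the phosphate-regulating peptidase, by -0.06, and Tnfrsf11b, the osteoclast inhibitor osteoprotegerin, by -0.39. Of 16 osteoclast genes 13 were lower, with a median of -0.11. Ctsk, the collagen-cutting protease of osteoclasts, was at 13.36, 13.44, 12.21 and 12.73 in WT and at 12.16, 12.36, 12.22 and 12.73 in Prkaca+/- bone. The difference of -0.57 ± 0.27 came with overlapping groups, WT replicates 1 and 2 being the high arrays. Acp5, the acid phosphatase of osteoclasts, differed by -0.14 and Nfatc1, their transcription factor, by 0.04.

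Cartilage genes had the lowest median of all lists, -0.46, with 13 of 14 lower and 3 of them at an unadjusted p under 0.05, against 0.889% of all genes. Col2a1 encodes the collagen of cartilage and was at 10.55, 10.28, 9.71 and 11.39 in WT and at 10.14, 9.47, 8.45 and 8.04 in Prkaca+/- bone. The difference was -1.46 ± 0.48 and the groups overlapped at Prkaca+/- replicate 1; a second probe gave -1.51. Acan, which encodes the proteoglycan aggrecan, differed by -1.14 ± 0.39, and Sox9, the transcription factor of cartilage cells, by -0.70 ± 0.25. Col10a1, a collagen of hypertrophic cartilage, was detected on WT replicates 1 and 4 and on 1 Prkaca+/- array. The list mean was 8.29, 7.53, 7.56 and 8.45 in WT and 7.85, 7.44, 7.06 and 7.26 in Prkaca+/- bone, so that WT replicates 1 and 4 were high. The median was -0.86 without WT replicate 2 and -0.30 without WT replicate 4. Only 3 of these 14 intervals lay inside 2-fold. Chad, chondroadherin, had a difference of 0.01.

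**Figure D5:**
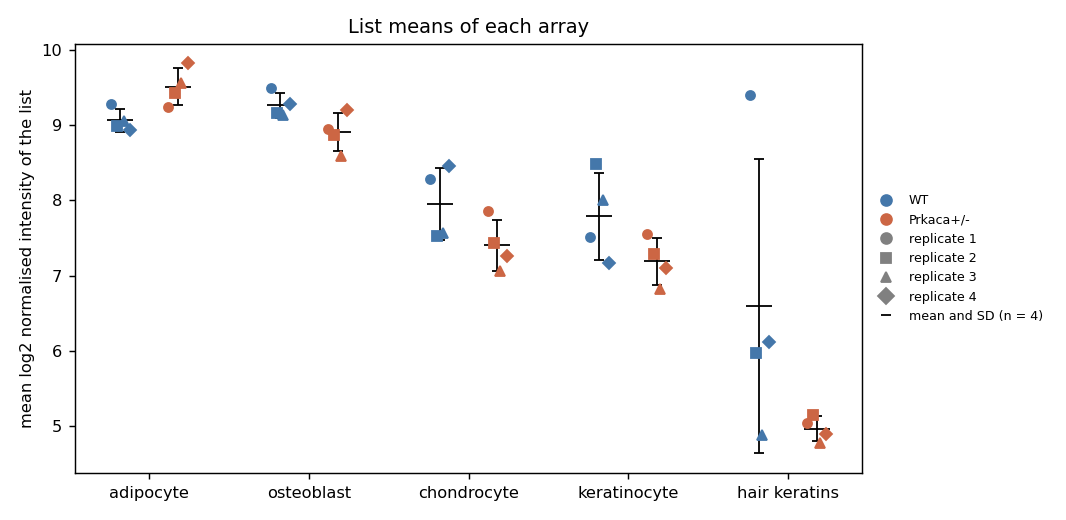
Mean log2 normalised intensity (vertical axis) over 4 gene lists and over the 30 tested hair keratin genes on each WT (blue) and Prkaca+/- (orange) array, 1 symbol per replicate, with the mean and SD of 4 arrays in black. The hair keratin mean of 9.41 on WT replicate 1 stands far above the 4.76 to 6.11 of the other arrays.

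Of 58 genes beyond a 2-fold difference (0.560% of all), 52 were lower and 6 higher in Prkaca+/- bone, and 25 of the 52 were hair keratins or keratin-associated proteins, a group singled out after its values were seen. Of all 52, 36 were highest on WT replicate 1, 12 on WT replicate 2, 1 on WT replicate 3 and 3 on WT replicate 4. Krt34, a hair cortex keratin, was at 11.69, 5.82, 4.69 and 8.24 in WT and at 5.17, 5.51, 4.58 and 4.62 in Prkaca+/- bone. Of 30 tested genes of this kind, 27 were highest on WT replicate 1 and 3 on WT replicate 2, and their mean was 9.41, 5.97, 4.87 and 6.11 on the WT arrays and between 4.76 and 5.15 on the Prkaca+/- arrays. Without WT replicate 1, 28 genes were more than 2-fold lower and 10 higher. Krt34 was thus high on WT replicates 1 and 4. Krt14, the keratin of basal cells of the epidermis, was at 8.07, 8.77, 8.23 and 6.31 in WT and at 7.19, 6.58, 4.91 and 5.96 in Prkaca+/- bone, a difference of -1.68 ± 0.58, with WT replicates 1 to 3 high. Krt17 differed by -1.78 ± 0.48, while Krtdap and Trp63, also genes of keratinocytes, differed by 0.25 and 0.13. The keratinocyte list had 8 of 10 genes lower. For 4 of them (Krt14, Krt17, Dmkn and Sbsn) the unadjusted p was under 0.05, against 0.889% of all genes, and for Dmkn and Sbsn the groups did not overlap, against 0.473%. The median was -0.43, and it was -0.25 without WT replicate 2, -0.72 without Prkaca+/- replicate 1 and -0.70 without WT replicate 4. The part of skin in the other differences was not tested.

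The granulocyte list had 7 of 9 genes lower with a median of -0.38, which was -0.11 without WT replicate 2 and -0.61 without WT replicate 4. With no detection filter it was -0.005. Lcn2, lipocalin 2, differed by -0.67 ± 0.27 and Fcnb, ficolin B, by -0.65 ± 0.20, whereas S100a8, a calgranulin of neutrophils, differed by 0.09. Erythroid genes had a median of 0.08, and Hba-a1, α-globin, was at 12.26, 14.07, 12.99 and 14.46 in WT and at 13.36, 13.52, 14.92 and 14.97 in Prkaca+/- bone. Macrophage, B cell, T and NK cell and megakaryocyte genes had medians of -0.10, -0.04, -0.07 and 0.08, and the macrophage median was 0.23 without WT replicate 2. Of 20 MHC genes 6 were higher and 14 lower, with a median of -0.08. The highest was H2-T10 at 1.67, described below, and H2-D1 differed by 0.50. H2-Aa and H2-Eb1, class II chains of antigen-presenting cells, were high on WT replicates 1 and 2. H2-Aa was at 12.20, 13.14, 10.20 and 10.08 in WT and between 10.20 and 10.48 in Prkaca+/- bone. Retnla, a marker of alternatively activated macrophages, stood at 13.72 on WT replicate 2 and between 6.18 and 9.08 on the other arrays.

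Upstream of PKA, of 30 measured genes that make, break down or anchor cAMP signals, 17 were higher and 13 lower, with a median of 0.04, and 29 intervals lay inside 2-fold. Gnas, the stimulatory G protein, was at 11.41, 11.33, 11.45 and 11.62 in WT and at 11.48, 11.53, 11.39 and 11.30 in Prkaca+/- bone, with an interval from 81.6% to 117.2% of WT. Akap6, an anchoring protein that holds PKA at the muscle nuclear envelope and reticulum, was at 7.35, 7.33, 7.87 and 7.75 in WT and at 8.28, 7.83, 8.0 and 7.94 in Prkaca+/- bone. Its difference of 0.44 ± 0.16 was the only one of this list at an unadjusted p under 0.05, against 1.85% of all genes, and the groups overlapped. The cAMP-degrading phosphodiesterases Pde4a, Pde4b and Pde4d differed by -0.22, -0.24 and -0.04, and the cyclases Adcy6 and Adcy9 by -0.16 and 0.14. Of 10 receptors and receptor partners that act through Gs, 5 were higher and 5 lower. Ramp3, a partner of the calcitonin receptor family, differed by -1.04 ± 0.35, with WT replicates 1 and 4 high, and Calcrl, one of the receptors it binds, by -0.28 ± 0.14.

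Downstream, 23 CREB family and cAMP-responsive genes had 13 higher, 10 lower and a median of 0.01, beside 0.01 for all genes. Without WT replicate 2 the median was -0.17. Pck1, the enzyme that starts glucose and glycerol synthesis and a classic CREB target, was at 7.02, 6.38, 6.55 and 6.05 in WT and at 7.29, 6.42, 7.22 and 7.20 in Prkaca+/- bone. Its difference of 0.53 ± 0.25 came with overlapping groups. Per1, a clock gene that cAMP induces, differed by 0.32 ± 0.25, Nr4a2, an orphan receptor induced by parathyroid hormone, by -0.22 ± 0.13, and Crem, which encodes activators and repressors of cAMP response, by -0.49 ± 0.25. The other Crem probes gave -0.49, -0.04 and 0.01, and the other Per1 probe gave 0.46. Fos was at 11.28, 8.67, 9.90 and 10.17 in WT and at 10.60, 10.58, 8.92 and 10.38 in Prkaca+/- bone, so its interval, from 47.1% to 248.2% of WT, allows a change of more than 2-fold either way. Jun differed by -0.37 ± 0.15. Of the 23 intervals 18 lay inside 2-fold and 9 inside 1.5-fold, so this list is bounded less tightly than the genes at large.

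All 41 oxidative phosphorylation genes had intervals inside 2-fold and 38 inside 1.5-fold, with a median of 0.01, and so had all 23 ribosomal protein genes, 22 of them inside 1.5-fold, with a median of 0.03. The 14 clock genes had a median of 0.04, with Clock at 0.00 and Arntl, its partner, at -0.20. The 18 endothelial genes had a median of -0.01 and all lay inside 2-fold. Among 21 fibrous matrix genes 14 were lower with a median of -0.14 (0.05 without WT replicate 2), from -0.52 for Col6a2 to 0.35 for Fbln1. Among 33 BMP and TGF-beta genes the median was -0.01, and Grem1, a secreted BMP antagonist that also marks stromal progenitors, was the lowest at -1.08 ± 0.49, with levels of 8.67, 6.36, 7.64 and 8.21 in WT and 7.35, 6.92, 5.70 and 6.58 in Prkaca+/- bone. The 17 stromal progenitor markers had a median of 0.04, the 30 Wnt pathway genes one of -0.06, the 20 glycolysis and glycogen genes one of -0.13 and the 18 interferon-stimulated genes one of 0.02. Of the 24 immediate early and stress genes 12 were higher and 12 lower. Mt1 and Mt2, metallothioneins, were high on Prkaca+/- replicate 2, at 15.11 and 9.98, against at most 13.82 and 7.96 elsewhere.

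Genes beside Prkaca on chromosome 8 were read because a targeted allele carries flanking sequence with it. The 10 nearest tested genes on each side in RefSeq gene order (GRCm38.p6), which reach at most 35 places away, had a median difference of 0.01, and 9 of 20 were lower. All 547 tested genes of the chromosome also had a median of 0.01. Asf1b, a histone chaperone gene 1 place before Prkaca, differed by 0.19, and Il27ra, a cytokine receptor gene 7 places after it, by -0.18. The lowest was Gipc1 at -0.46, whose other probes gave -0.06, 0.25 and 0.09, and the highest was Ucp1 at 1.40, 33 places before Prkaca, the only 1 of the 20 (5%) at an unadjusted p under 0.05, against 2.19% of the tested genes of the chromosome and 1.85% of all genes. None of the 20 separated the groups, and 18 intervals lay inside 2-fold.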

How the data were processed

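Each of 8 samples gave 1 bead array. Per the labels' protocols, Trizol extraction was followed by a column with DNase, and biotinylated cRNA was hybridised. For 25697 probes the non-normalized table, per its headers as deposited, has 1 linear average intensity and 1 detection p-value per array. The authors left intensities empty where the detection p-value was above 0.1, so between 15573 and 16223 remained per array. The deposited score table, whose unit is not stated, holds z-scores of the same intensity within each array (linear, centred and scaled per array; medians near -0.17 on the first WT arrays), and was used as an alternative only. No source used here names the scanner or software.

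Background mean and SD were the intercept and slope of a line through intensities with detection p-values of 0.01 to 0.1, against the matching normal quantiles, and the same line filled empty values, since neqc needs an intensity for every probe. Normexp correction, an offset of 16, quantile normalisation over the 8 arrays and log2 followed. The platform annotation named 1 gene for 23978 probes, several for 0 and none for 1719; of the named, 23962 matched RefSeq by gene identifier, and 0 symbols changed. The named probe with the highest mean, among 14216 tested, stood for its gene, and a listed gene without one is not analysed here. Differences were fitted with limma 3.58.1 in R 4.3.3 (2 groups, 6 residual degrees of freedom, Benjamini-Hochberg over 10349 genes), after tests on simulated data. The number of arrays limits the precision. All p-values and intervals are from limma unless called exact.

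The members and gene lists were chosen with earlier results of these data known. Genes were named by a rule: the PKA genes; up to 10 per direction with the largest difference among those past the adjusted threshold, or else among those with an unadjusted p under 0.01, groups apart and detection on all brighter arrays; the 2 extremes each way of every list; the 10 neighbours on either side of Prkaca; and Xist and Y-linked genes. Not every gene that met this rule is described, and that choice was made with the values seen. Other named genes, in these lists or outside them, were described after their values were seen. A bound sets the brighter mean against the higher, on each array, of the lowest detected signal and the probe's own value. Alternatives covered background, normalisation, offset, detection filter, filling, replicate block, sex, muscle content, array weights, prior variance, probe choice, the score table and each array left out. Leaving out both Xist-high arrays was chosen after seeing the data. Same-numbered arrays correlated at 0.13, -0.13, -0.09 and -0.27 in their deviations from the group means. Arrays of different numbers correlated between -0.31 and 0.26. These values show no pairing by number, but so few arrays cannot exclude one, and the main fit treats the samples as unpaired. Every deposited column was mapped to a sample.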

Additional observations from a re-analysis of the deposited data

Results flagged for a closer look

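Arrays that stood far from the other 3 of their group were marked by Dixon's test, which marks about 1 group in 20 by chance; 23 of 304 groups (7.57%) were marked over 118 named genes and 34 list means. Values are log2 normalised intensities, and no cause was tested.

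In fat genes, Prkaca+/- replicate 4 was high for Dgat2 (11.15), Lipe (7.069) and Lpl (14.07), WT replicate 2 was low for Pnpla2 (11.87), and WT replicate 1 was high for Ucp1 (6.281). In bone and cartilage genes, Alpl was low on Prkaca+/- replicate 3 (7.265), Bglap high on WT replicate 2 (11.73), Bglap2 high on Prkaca+/- replicate 4 (12.74), Col11a2 high on WT replicate 1 (5.332) and Acan low on WT replicate 2 (8.352).

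Among signalling and other genes, Fos was low on Prkaca+/- replicate 3 (8.919), Pck1 low on Prkaca+/- replicate 2 (6.424), Pde4a (7.736) and Clock (10.47) low on WT replicate 2, Sbsn low on Prkaca+/- replicate 3 (7.596) and H2-T10 low on Prkaca+/- replicate 1 (4.645). Xist was high on WT replicate 2 (8.396) and Prkaca+/- replicate 4 (8.297), where the mean over Xist and the Y-linked genes was low (5.831 and 5.675). The list means of immediate early and stress genes on Prkaca+/- replicate 2 (9.75) and of cell cycle genes on Prkaca+/- replicate 3 (6.849) were high, and that of Schwann cell and neuron genes on WT replicate 3 (9.264) was low.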

How the results depend on the processing

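No gene passed the adjusted threshold under 21 of 22 alternatives, and the count at an unadjusted p under 0.05 ran from 146 to 393 over the 19 refits (191 as reported), with 182, 260 and 213 under a trended prior, with every probe and with the deposited scores. Only without Prkaca+/- replicate 1 did 1 gene pass, H2-T10 (adjusted p 0.0039 in limma). Leaving out 1 array at a time gave 0 to 1 passing genes, 9539 to 9647 intervals inside 2-fold, 6 to 13 genes more than 2-fold higher and 28 to 65 lower, and a Prkaca difference from -1.01 to -0.76. The lower count of 28 came without WT replicate 1, with 10 higher; higher counts were 13 without WT replicate 2, 12 without Prkaca+/- replicate 1 and 10 without Prkaca+/- replicate 2, and 11 without both Xist-high arrays. Other settings changed counts beyond 2-fold: 2 higher and 30 lower with no background correction, 3 higher with an offset of 50, and 3 higher and 13 lower with detection on all 8 arrays, where fewer genes are tested. Intervals inside 2-fold were 10107 with no background correction and 10059 with an offset of 50. They were 16009 with no detection filter, which tests 16593 genes, and 97 under Bonferroni. Prkaca lay between -1.0 and -0.76 under the other alternatives, never past the adjusted threshold (0.709 to 1). The medians of the adipocyte (0.21 to 0.42), osteoblast (-0.55 to -0.21), chondrocyte (-0.86 to -0.25), keratinocyte (-0.72 to -0.07) and granulocyte (-0.61 to -0.005) lists had the same sign under all 19 alternatives. Of 34 list medians 24, none above 0.144 in size, took both signs over these alternatives. The CREB list's median of 0.01 was -0.17 without WT replicate 2 and -0.19 without both Xist-high arrays. With the replicate number as a block, 0 genes passed and 199 had an unadjusted p under 0.05. Filling empty intensities from the score table was not run, since the scores are empty at the same probes, and each array's lowest intensity was used instead. With no background correction Cutal was at 0.18. For the other named genes that moved by at least their pooled SD within groups, the values stand beside them. Fat genes and Pck1 stayed within that SD but still varied over settings other than leaving out 1 array. Ucp1 ran from 0.76 to 1.40, Lep from 0.66 to 1.03, Plin1 from 0.32 to 0.77 and Pck1 from 0.33 to 0.54. Low signal limits 1686 genes detected on 2 to 7 arrays. The cause of these shifts was not tested.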

Other observations

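Genes more than 2-fold higher in Prkaca+/- bone whose levels are not printed above are given here as values, chosen after they were seen. Cyp2e1, a cytochrome P450 of liver and fat, was at 7.01, 6.58, 5.94 and 6.33 in WT and at 7.56, 6.87, 8.68 and 9.52 in Prkaca+/- bone, a difference of 1.69 ± 0.50 (SE, 4 against 4 arrays), with Prkaca+/- replicate 2 inside the WT range. H2-T10, an MHC class Ib gene of a family of close copies that probes may not tell apart, was at 5.28, 4.85, 4.86 and 5.02 in WT and at 4.65, 7.10, 7.33 and 7.61 in Prkaca+/- bone. Prkaca+/- replicate 1 was the lowest array and the other 3 Prkaca+/- arrays the highest. Erdr1 differed by 1.11 ± 0.65 and Tpsab1, a mast cell tryptase, by 1.31 ± 0.87, both with overlapping groups.

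Zfp330 stood at 4.70 on Prkaca+/- replicate 2 and between 9.73 and 10.89 on the other arrays, while its other probe gave a difference of -0.03. The probe that stood for Zfp330 differed by -1.63 ± 1.12, the lowest of the 547 tested genes of chromosome 8. Zfp330 lies on the same side of Prkaca as Ucp1, farther out than the 35 places read above. A link to the Prkaca allele was not tested.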
